A study of Mus musculus with 6 samples.

Results

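Genes of bone-forming and bone-resorbing cells were detected in the cochlear duct transcriptome at postnatal day 8, and 10 of them are described here. Of these, 6 belong to osteoblasts and the matrix they lay down (*Ibsp*, *Sp7*, *Alpl*, *Dmp1*, *Phex* and *Spp1*) and 4 belong to resorption (*Ctsk*, *Acp5*, *Mmp9* and *Mmp13*). All 10 were among the 14865 genes of the deposited table and among the 14455 genes tested, those reaching 40 normalized reads in 1 or more libraries. They were chosen by gene symbol as bone genes, with their levels in these libraries and the difference between the genotypes already known, so their values, with their errors, are given as a description and no test is read from them. RNA-seq was done on 3 libraries of *Gfi1*+/+ mice and 3 of *Gfi1*cre/+ mice, labelled C57BL/6 and taken at P8. The *Gfi1*Cre line was made on a mix of 129S6 and C57BL/6J before it was kept on C57BL/6J. In *Gfi1*cre/+ mice the coding sequence of Cre recombinase replaces part of 1 allele of *Gfi1* in every cell, so Cre is driven by the *Gfi1* locus. A *Gfi1*+/+ library stands for 1 animal (2 cochleae), and a *Gfi1*cre/+ library averages over 3 animals (6 cochleae). A normalized read is a read counted on a gene and divided by the size factor of its library, and 3 values in a row are those of replicates 1, 2 and 3.

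The cochlea lies inside the otic capsule, which forms as cartilage and is replaced by bone around birth in the mouse. Osteoblasts are set on their path by the transcription factors RUNX2 and SP7, secrete collagen and acidic matrix proteins and then mineralize this matrix, and some become buried in it as osteocytes. Osteoclasts, which arise from the monocyte and macrophage lineage, acidify the bone surface and digest its matrix with proteases. The labels name the tissue as cochlear duct. Its own markers were present, with 14 of 14 genes of hair cells, supporting cells, stria vascularis and spiral ligament tested and a summed level between 157474.7 and 166022.0 normalized reads per library. Single genes of this list varied more than the sum, in opposite orders. *Coch* had 12621.1, 9245.1 and 16264.3 in *Gfi1*+/+, and *Otos* had the same order. *Tecta* had 5506.4, 9628.3 and 3299.5, and *Tectb* also had replicate 2 highest and replicate 3 lowest. In *Gfi1*+/+, replicate 3 was the highest library in 8 of the 14 genes and replicate 2 in 4. Of the skeletal muscle genes, 4 of 10 were listed, and *Des*, which other cells also express, made up most of their sum. Whether the bone transcripts came from the capsule wall or from the bony modiolus was not measured.

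The libraries held between 13603908 and 19359753 reads counted on genes. *Gfi1*+/+ replicate 1 stood apart by its neuronal genes, whose summed level over 10 genes was 10080.8 normalized reads against 2369.1 to 3753.5 in the other *Gfi1*+/+ libraries and 1808.6 to 2737.2 in *Gfi1*cre/+. The Y-linked *Ddx3y* had no read in any *Gfi1*+/+ library and between 232 and 485 normalized reads in *Gfi1*cre/+, so sex and genotype cannot be told apart. *Gfi1* itself had 147, 160 and 152 normalized reads in *Gfi1*+/+ and 136, 130 and 139 in *Gfi1*cre/+, counted also over exons that the targeted allele keeps. Over all 14455 genes, limma called 4 (0.0277%) between the genotypes at an adjusted p-value of 0.05, *Ddx3y* among them. The 4 genes that passed an FDR of 0.05 in the authors' own test were all on the Y chromosome. By limma, 439 (3.04%) reached 0.05 without adjustment, 147 of them (1.02%) higher in *Gfi1*cre/+. The genotypes had no overlap of libraries in 1087 genes (7.52%).

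Per kb of exon, bone matrix genes were among the most abundant transcripts of the tissue. *Ibsp*, which encodes bone sialoprotein, an acidic protein of mineralizing matrix, had the highest level, with 7560.0 normalized reads per kb as the mean of the 6 libraries, above 99.4% of the 14388 tested genes with a known length. *Spp1*, which encodes osteopontin, a related matrix protein made by osteoblasts, osteoclasts and other cells, followed with 6507.2 per kb. The ranges of these 2 genes over the libraries overlapped, and both lay above all other genes of the set. *Ctsk*, the cathepsin with which osteoclasts digest collagen, had 1925.4 per kb. *Dmp1*, a matrix protein of late osteoblasts and osteocytes, had 1286.9, *Acp5*, the tartrate-resistant acid phosphatase of osteoclasts, had 880, and *Alpl*, the phosphatase that frees phosphate for mineralization, had 699. *Mmp9*, a gelatinase of osteoclasts and neutrophils, had 606, and *Sp7*, the transcription factor of committed osteoblasts, had 357. From *Ctsk* to *Sp7* each gene overlapped the next in its range over the libraries, so neighbours in this order are not resolved, while all libraries of *Ctsk* lay above all of *Acp5*, *Alpl*, *Mmp9* and *Sp7*. *Phex*, an endopeptidase of osteoblasts and osteocytes that limits the phosphate-regulating hormone FGF23, had 146 per kb, and *Mmp13*, a collagenase of hypertrophic chondrocytes and osteoblasts, had 32.0. Both were apart from their neighbours, and the median of the tested genes was 111 per kb, so that of the 10 genes *Mmp13* alone lay below it.

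**Figure D1:**
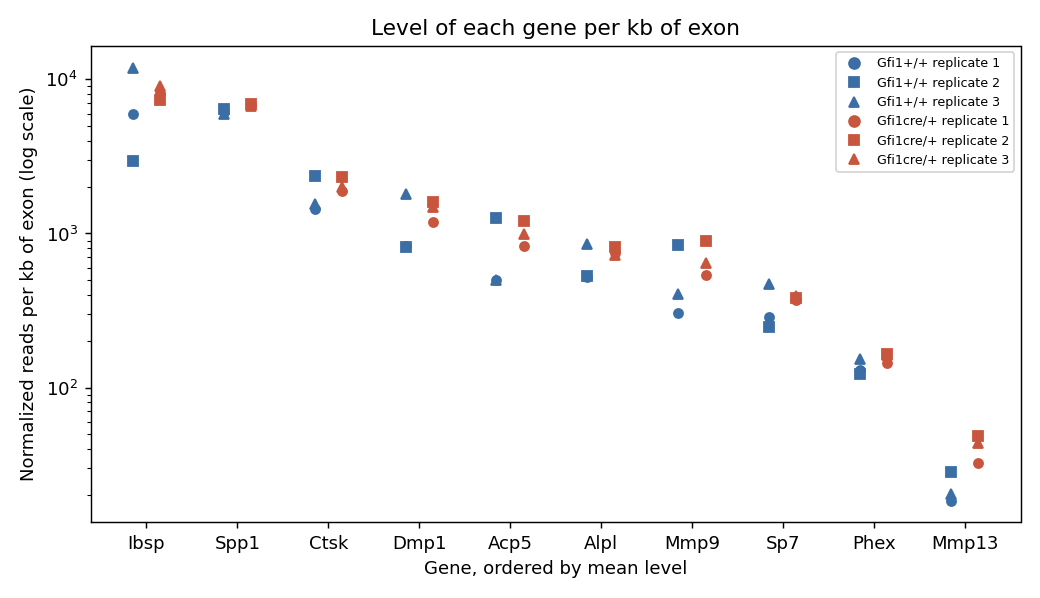
Level of each of the 10 genes in normalized reads per kb of exon (log axis), genes ordered by their mean; each point is 1 library, blue for *Gfi1*+/+ and red for *Gfi1*cre/+, with the symbol giving the replicate. *Ibsp* and *Spp1* lie above the other genes and *Mmp13* lies lowest, between 18.5 and 48.8 per kb.

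*Dmp1*, *Ibsp* and *Spp1* lie side by side on the plus strand of chromosome 5 (GRCm38), in a cluster of genes for acidic bone matrix proteins that also holds *Mepe*. *Dmp1* spans 104202613 to 104214102, *Ibsp* 104299171 to 104311469, *Mepe* 104325329 to 104338611 and *Spp1* 104435118 to 104441050. *Gfi1* starts at 107716657 on the same chromosome, 3.28 Mb from the end of *Spp1*, and each of these genes is thus linked to the targeted locus. Within 5 Mb of *Gfi1*, 82 genes other than *Gfi1* and the set were tested. Their median log2 fold change was 0.01 (*Gfi1*cre/+ against *Gfi1*+/+), 44 were higher and 38 lower in *Gfi1*cre/+, 6 had an unadjusted p-value under 0.05 by limma (1 of them higher) and none did after adjustment. Over all genes tested, 3.04% had an unadjusted p-value under 0.05 by limma, and 1.02% had it with a higher level in *Gfi1*cre/+. The part of the linkage in the levels below was not tested. *Alpl* lies on chromosome 4, *Sp7* on 15, *Phex* on X, *Ctsk* on 3, *Mmp9* on 2, and *Acp5* and *Mmp13* on 9. Exons of *Spp1* share 309 bases with a gene model on the same strand (*Gm42793*), and exons of *Acp5* share 137 bases with a transcript of the opposite strand (*6530413G14Rik*); the strand setting of the counting is not given in the sources used here.

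Promoter windows from 250 bases before to 50 bases after the start were found in RefSeq (GRCm38.p6) for 8 of the 10 genes, in 13 windows. Shown are the 3 windows that held the letters TGTGGT of a RUNX site (either strand, so also ACCACA), and the window of *Ibsp*. These letters and TGANTCA of an AP-1 site (its own reverse complement) are in capitals. These matches describe the letters of the windows and are not sites measured here.

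Mmp13, chr9:7272264-7272563, plus strand: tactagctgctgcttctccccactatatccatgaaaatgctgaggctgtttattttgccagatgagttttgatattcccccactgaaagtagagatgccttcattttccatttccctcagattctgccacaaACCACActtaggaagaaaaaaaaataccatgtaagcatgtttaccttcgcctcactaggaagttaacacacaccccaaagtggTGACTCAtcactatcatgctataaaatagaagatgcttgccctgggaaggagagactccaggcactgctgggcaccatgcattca

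Spp1, chr5:104434861-104435160, plus strand: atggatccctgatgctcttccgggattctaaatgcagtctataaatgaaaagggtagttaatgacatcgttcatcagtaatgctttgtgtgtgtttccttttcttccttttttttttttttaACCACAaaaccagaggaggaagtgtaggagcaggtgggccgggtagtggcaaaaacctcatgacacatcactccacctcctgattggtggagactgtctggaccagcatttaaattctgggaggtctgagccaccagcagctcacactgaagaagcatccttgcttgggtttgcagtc

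Dmp1, chr5:104202367-104202666, plus strand: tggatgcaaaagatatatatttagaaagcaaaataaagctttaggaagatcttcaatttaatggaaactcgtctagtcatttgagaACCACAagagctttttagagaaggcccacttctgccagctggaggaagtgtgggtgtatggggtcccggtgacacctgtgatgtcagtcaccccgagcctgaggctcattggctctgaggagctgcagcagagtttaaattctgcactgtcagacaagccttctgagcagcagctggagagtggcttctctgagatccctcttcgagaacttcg

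Ibsp, chr5:104299037-104299336, plus strand: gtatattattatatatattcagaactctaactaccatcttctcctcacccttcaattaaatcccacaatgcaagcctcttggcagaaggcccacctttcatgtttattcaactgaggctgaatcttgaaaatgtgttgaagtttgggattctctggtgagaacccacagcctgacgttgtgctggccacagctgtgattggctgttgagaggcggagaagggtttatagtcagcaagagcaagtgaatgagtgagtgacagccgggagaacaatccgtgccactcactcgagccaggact

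RUNX letters were found in 3 of the 13 windows, at position -118 from the start in *Mmp13*, -128 in *Spp1* and -164 in the second of the 2 *Dmp1* windows. They occur in 16.8% of the 32851 promoter windows of the table. The AP-1 letters were found in *Mmp13* alone among the 13 windows, at position -35, and they occur in 7.81% of all windows. The *Mmp13* window held both motifs without overlap. The *Ibsp* window held neither. The letters CATGTG of an E-box (either strand) were also looked for. They were found in 3 of the 13 windows, of *Dmp1*, *Phex* and *Acp5*, which are not shown, and occur in 14.2% of all windows.

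Of the osteoblast genes, *Ibsp* differed most between the individual *Gfi1*+/+ mice. *Ibsp* (ENSMUSG00000029306) had 12339.7, 6090.5 and 24659.6 normalized reads in *Gfi1*+/+, a 4.05-fold range, and 16774.9, 15281.5 and 18658.2 in *Gfi1*cre/+. The *Gfi1*cre/+ libraries all lay between the *Gfi1*+/+ libraries 1 and 3, and replicate 3 was highest and replicate 2 lowest in both genotypes. Among the 14455 genes, the SD of *Ibsp* between the *Gfi1*+/+ libraries on the log2(normalized reads + 1) scale, 1.01, was at the 98.7th percentile, where the median gene had 0.119.

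*Dmp1* (ENSMUSG00000029307) had 2304.5, 2256.3 and 4971.4 normalized reads in the *Gfi1*+/+ replicates and 3300.3, 4399.4 and 4110.0 in the *Gfi1*cre/+ replicates. *Sp7* (ENSMUSG00000060284) had 974, 838 and 1595.9 in *Gfi1*+/+ and 1248.9, 1298.7 and 1327.5 in *Gfi1*cre/+. *Alpl* (ENSMUSG00000028766) had 2092.2, 2133.8 and 3467.2 in *Gfi1*+/+ and 2995.7, 3292.4 and 2927.8 in *Gfi1*cre/+. In each of these 3 genes *Gfi1*+/+ replicate 3 was the highest of all 6 libraries and the other *Gfi1*+/+ libraries were the lowest, so that the *Gfi1*cre/+ libraries fell in between.

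*Phex* (ENSMUSG00000057457) also had replicate 3 as the highest and replicate 2 as the lowest *Gfi1*+/+ library, with 822, 766 and 962 normalized reads in *Gfi1*+/+ and 904, 1044.8 and 1016.2 in *Gfi1*cre/+, so that the genotypes overlapped and 2 of the *Gfi1*cre/+ libraries lay above all of *Gfi1*+/+. *Spp1* (ENSMUSG00000029304) had another order. It had 10161.1, 10606.2 and 9849.9 normalized reads in *Gfi1*+/+, with replicate 3 the lowest, and 11254.3, 11420.9 and 11050.6 in *Gfi1*cre/+, every one of them above every *Gfi1*+/+ library. Its SD between the *Gfi1*+/+ libraries, 0.0536 on the log2 scale, was at the 15.8th percentile of the genes tested. Between the *Gfi1*+/+ libraries, *Spp1* was thus the steadiest of the 10 genes and *Ibsp* varied most. In *Gfi1*cre/+ the SD of *Ibsp* on the log2 scale, 0.144, was below that of *Mmp9*, 0.373.

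The resorption genes differed between the *Gfi1*+/+ mice as well, in another order. *Acp5* (ENSMUSG00000001348) had 1018.3, 2546.3 and 1017.9 normalized reads in *Gfi1*+/+ and 1682.4, 2438.5 and 2012.5 in the *Gfi1*cre/+ replicates. *Mmp9* (ENSMUSG00000017737) had 1080.1, 2986.1 and 1441.9 in *Gfi1*+/+ and 1899.1, 3166.4 and 2285.2 in *Gfi1*cre/+. *Ctsk* (ENSMUSG00000028111) had 2177.4, 3561.9 and 2331.2 in *Gfi1*+/+ and 2865.2, 3503.7 and 3027.8 in *Gfi1*cre/+. Replicate 2 was the highest library of each genotype in all 3 genes, and the *Gfi1*+/+ replicates 1 and 3 were the lowest of all 6, so that the genotypes overlapped through *Gfi1*+/+ replicate 2 alone.

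*Mmp13* (ENSMUSG00000050578) had 49.4, 75.4 and 54.9 normalized reads in *Gfi1*+/+ and 87.0, 130 and 116 in *Gfi1*cre/+, with 40 to 147 reads behind these values. It had the same order within each genotype as *Ctsk* and *Mmp9*, and all *Gfi1*cre/+ libraries lay above all *Gfi1*+/+ libraries. Replicate 2 was thus the highest *Gfi1*+/+ library in all 4 resorption genes, as it was in 27.5% of all genes tested, and the highest *Gfi1*cre/+ library in all 4, as in 33.9% of all genes. Replicate 3 was the highest *Gfi1*+/+ library in 5 of the 6 osteoblast genes, against 38.7% of all genes.

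**Figure D2:**
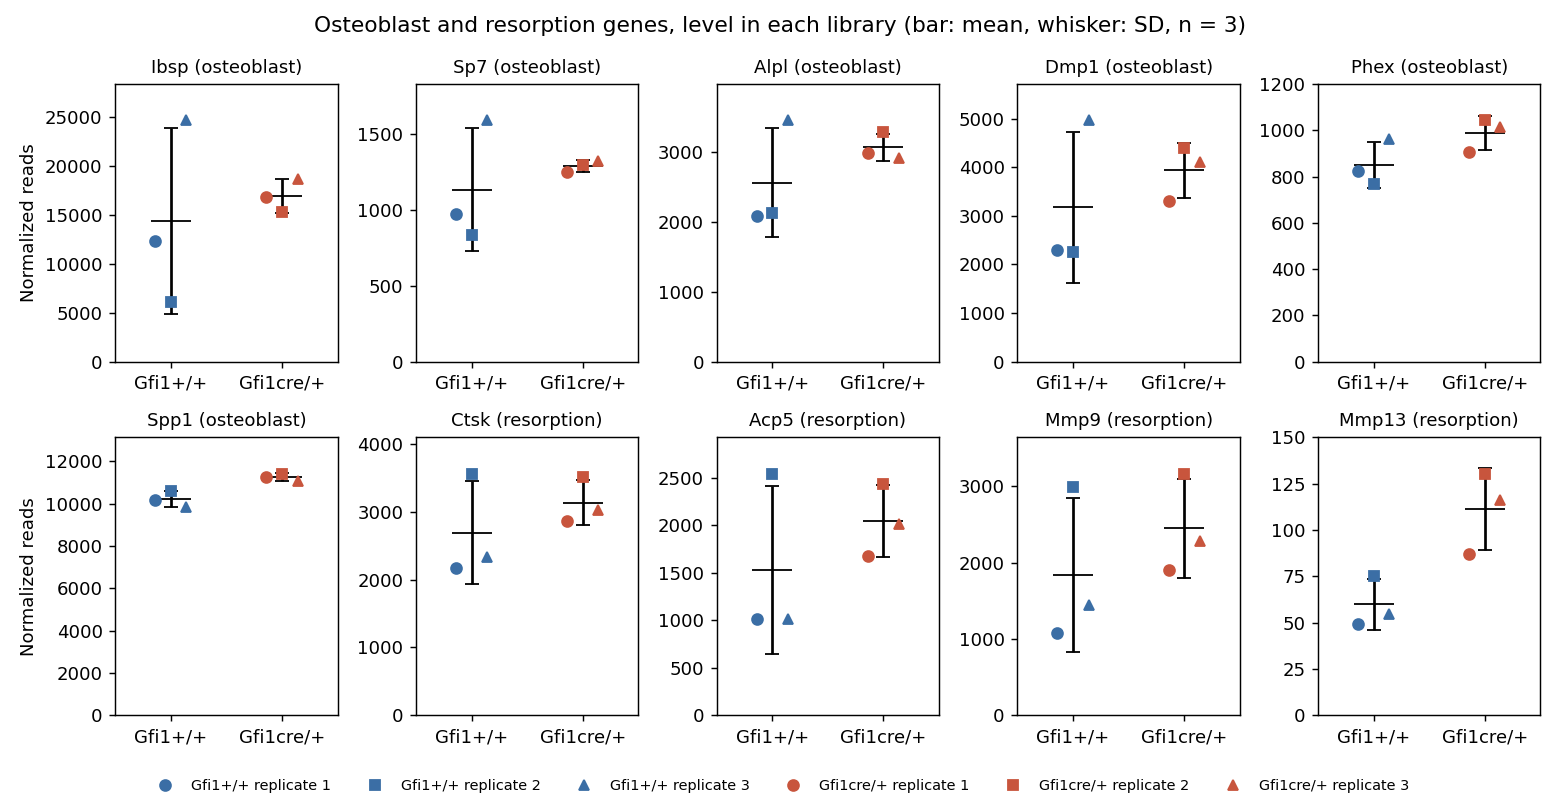
Normalized reads of the 6 osteoblast and 4 resorption genes in each library, axes from 0; points are libraries (circle, square and triangle for replicates 1, 2 and 3), the bar is the mean and the whisker the SD of 3 libraries. In *Gfi1*+/+, replicate 3 is highest for 5 of the 6 osteoblast genes and replicate 2 for all 4 resorption genes; only *Spp1* and *Mmp13* have no overlap between the genotypes.

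On the log2 scale, the mean of the 6 osteoblast genes minus that of the 4 resorption genes was 2.25, 1.01 and 2.71 in *Gfi1*+/+ and 1.92, 1.5 and 1.78 in *Gfi1*cre/+. The *Gfi1*+/+ libraries thus held both the highest and the lowest value, with 1.99 ± 0.876 (SD, n = 3) against 1.73 ± 0.212 in *Gfi1*cre/+. In reads, *Ibsp* was 24.2 times *Acp5* in *Gfi1*+/+ replicate 3 and 2.39 times *Acp5* in *Gfi1*+/+ replicate 2. In the *Gfi1*cre/+ libraries it was between 6.27 and 9.97 times. As deviations from the mean over the libraries, *Gfi1*+/+ replicate 2 was low in the osteoblast genes (-0.50) and high in the resorption genes (0.35), *Gfi1*+/+ replicate 3 was the reverse (0.34 and -0.51), and *Gfi1*+/+ replicate 1 was low in both (-0.28 and -0.67). The *Gfi1*cre/+ libraries were at or above the mean in both, between 0.07 and 0.19 for the osteoblast genes and between 0.01 and 0.55 for the resorption genes.

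**Figure D3:**
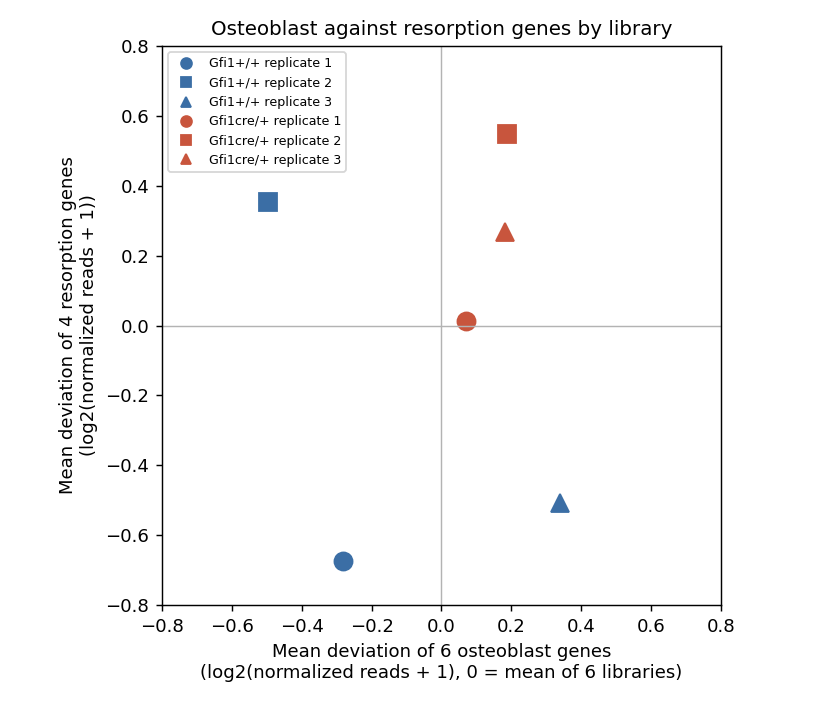
Mean deviation of the 4 resorption genes (y) against that of the 6 osteoblast genes (x) in each library, on the log2(normalized reads + 1) scale with 0 as the mean of the 6 libraries; blue points are *Gfi1*+/+, red points *Gfi1*cre/+. The *Gfi1*+/+ libraries lie far apart in 3 corners, and the *Gfi1*cre/+ libraries lie at the upper right.

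On the log2 scale, the SD was smaller in *Gfi1*cre/+ for each of the 10 genes, though in normalized reads that of *Mmp13* was larger there (22.1 against 13.7). Over all genes tested, the SD was larger in *Gfi1*+/+ for 71.2% of genes, and the median SD was 0.119 in *Gfi1*+/+ and 0.0737 in *Gfi1*cre/+. A *Gfi1*cre/+ library averages over 3 mice and a *Gfi1*+/+ library does not, so the spread between animals was not measured in the same way in the genotypes.

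To ask whether other genes of bone followed the same libraries, 33 further osteoblast and bone matrix genes and 22 further osteoclast and resorption genes were examined. Of the first list, 29 were tested, and *Gfi1*+/+ replicate 3 was the highest *Gfi1*+/+ library in 21 of them, against 38.7% of all genes tested. *Bglap*, which encodes the mineral-binding osteocalcin, had 3382.1, 2287.7 and 6677.0 normalized reads in *Gfi1*+/+ and 4481.4, 4044.3 and 4695.9 in *Gfi1*cre/+, and its near-identical copy *Bglap2*, from which reads may not be separable, had the same order. *Ifitm5*, a membrane protein of mineralizing osteoblasts, had 517, 269 and 717 in *Gfi1*+/+ and 567, 504 and 648 in *Gfi1*cre/+. *Smpd3*, a sphingomyelinase needed for mineralization, had 5599.0, 5095.8 and 9895.3 in *Gfi1*+/+ and 7263.0, 7767.2 and 8349.3 in *Gfi1*cre/+. These genes repeated the order of *Ibsp* in the *Gfi1*+/+ mice, and so did *Coch* and *Otos* of the cochlear duct list. Other genes of the list did not, as replicate 1 was the highest *Gfi1*+/+ library in 4 of the 29 and replicate 2 in 4. *Cdh11* had 2216.9, 2544.2 and 1912.4 normalized reads in *Gfi1*+/+, and *Col1a1* had 7619.6, 10948.6 and 10830.9. The median over the list of the log2 difference between *Gfi1*+/+ replicates 3 and 2 was 0.26, against 0.0 over all genes tested and 0.81 over the 6 osteoblast genes of the set.

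Among the most abundant genes of the list, *Sparc*, a collagen-binding matrix protein, had 174919.2 ± 21837.3 normalized reads (SD, n = 3) in *Gfi1*+/+ and 188409.3 ± 4813.4 in *Gfi1*cre/+. *Col1a2*, a chain of type I collagen, had 90227.3 ± 12583.8 and 93730.2 ± 4487.0. *Runx2*, the early transcription factor of the lineage, had 457, 539 and 553 normalized reads in the *Gfi1*+/+ replicates and 507, 502 and 522 in the *Gfi1*cre/+ replicates.

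Among the 20 osteoclast and resorption genes tested, *Gfi1*+/+ replicate 2 was the highest *Gfi1*+/+ library in 10, against 27.5% of all genes tested. Replicate 3 was the highest in 7 and replicate 1 in 3, and replicate 2 was the lowest in 5. *Car2*, of these 5, had 4494, 3996 and 4236 normalized reads in *Gfi1*+/+, and *Ckb* had 10440, 9887 and 15861. The 10 genes highest in replicate 2 included some characteristic of osteoclasts. *Atp6v0d2*, a proton pump subunit of osteoclasts, had 21.0, 73.3 and 26.4 normalized reads in *Gfi1*+/+ and 59.2, 66.6 and 70.8 in *Gfi1*cre/+. *Oscar*, an osteoclast receptor, had 22.2, 67.0 and 24.3 in *Gfi1*+/+ and 34.8, 59.5 and 47.2 in *Gfi1*cre/+, and *Ocstamp*, which takes part in cell fusion, had 18.5, 51.3 and 27.4 in *Gfi1*+/+ and 33.9, 38.2 and 35.9 in *Gfi1*cre/+. These rest on few reads, and replicate 2 was the highest *Gfi1*+/+ library in each. Over the list, the median log2 difference between *Gfi1*+/+ replicates 3 and 2 was -0.03, against -0.83 over the 4 resorption genes of the set. *Csf1r*, the receptor through which osteoclast precursors and macrophages are maintained, had 2341.5, 2698.2 and 2447.2 in *Gfi1*+/+ and 2313.4, 2537.9 and 2516.4 in *Gfi1*cre/+.

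**Figure D4:**
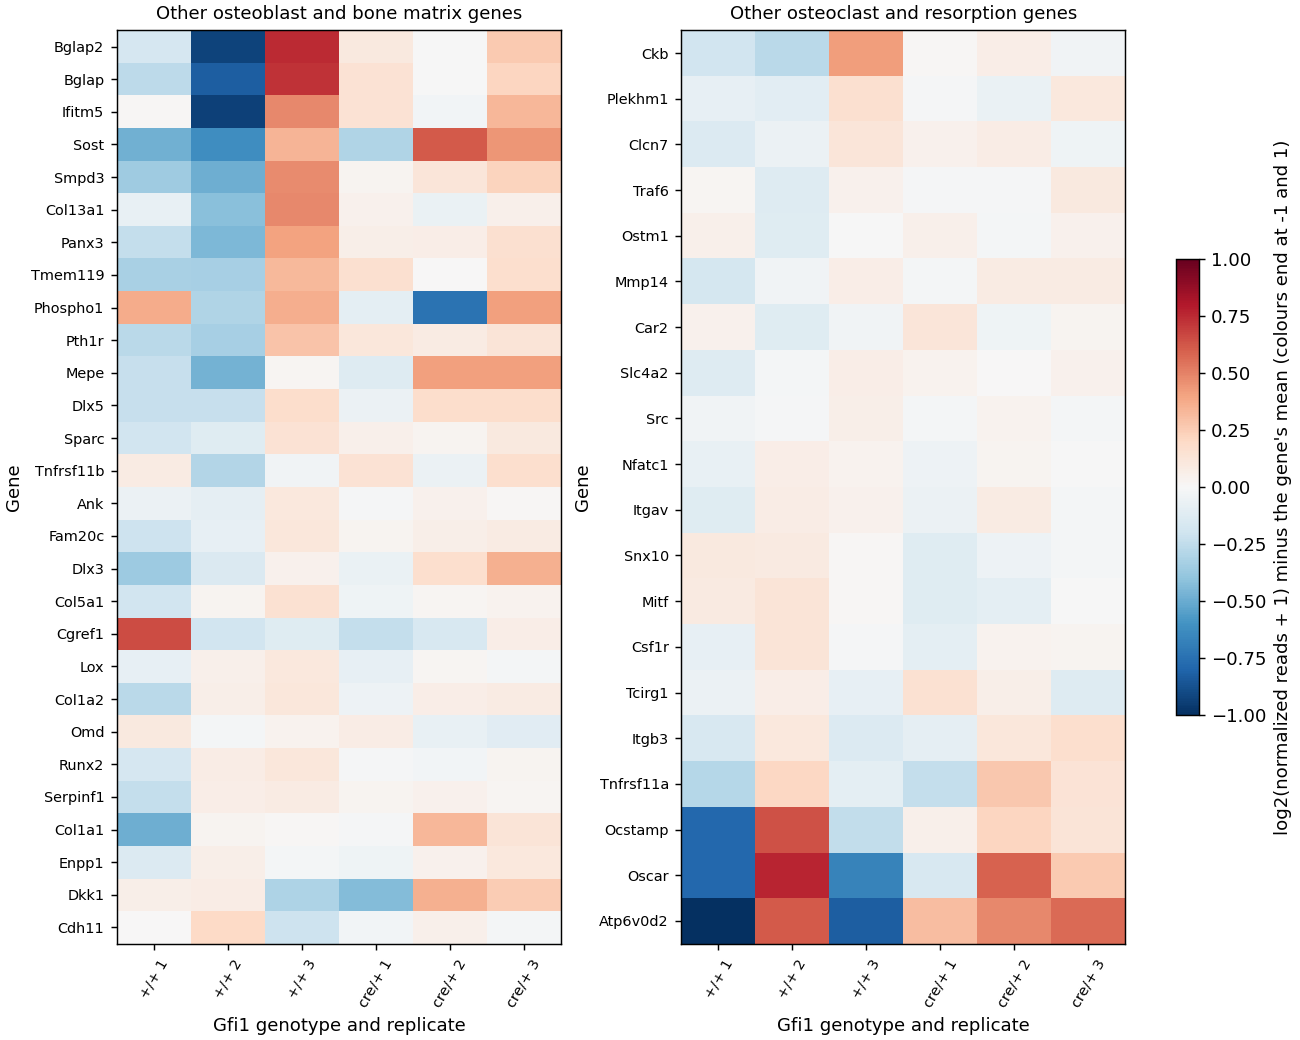
Heat maps of the other osteoblast and bone matrix genes tested (all but 1 of the 29) and of the 20 other osteoclast and resorption genes, coloured by log2(normalized reads + 1) minus the mean of the gene over 6 libraries (colours end at -1 and 1), genes sorted by the difference between *Gfi1*+/+ replicates 3 and 2. *Bglap2* and *Bglap* have the largest difference toward replicate 3 and *Atp6v0d2* and *Oscar* the largest toward replicate 2.

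Macrophages and neutrophils share genes with osteoclasts. As a background for the lists that follow, 49.9% of all genes tested had a higher mean in *Gfi1*cre/+. An unadjusted p-value under 0.05 by limma was reached by 3.04%, and the genotypes did not overlap in 7.52%. The 13 macrophage genes, all tested, had a summed level between 6190.2 and 6522.9 normalized reads in *Gfi1*+/+ and between 6155.0 and 6528.3 in *Gfi1*cre/+, and none was at 0. The 6 of 12 granulocyte genes that were listed summed to 61.7, 78.5 and 271 normalized reads in *Gfi1*+/+ and to 460, 236 and 290 in *Gfi1*cre/+. All 6 had a higher mean in *Gfi1*cre/+, with a median log2 fold change of 1.84, and 4 had an unadjusted p-value under 0.05 by limma. None was called after adjustment by limma or edgeR, and DESeq2 called 1. *Elane*, *Prtn3*, *Ctsg*, *Lcn2*, *Mmp8* and *Cebpe* of this list were not among the listed genes. The 10 of 12 erythroid genes that were listed summed to between 29478.5 and 43841.5 in *Gfi1*+/+ and between 38365.6 and 66394.2 in *Gfi1*cre/+, mostly through the globin genes. All 10 had a higher mean in *Gfi1*cre/+, with a median log2 fold change of 1.19, 9 had an unadjusted p-value under 0.05, and the genotypes did not overlap in 5. After adjustment limma and edgeR called none and DESeq2 called 2. The 10 neuronal genes all had a lower mean in *Gfi1*cre/+, with a median log2 fold change of -1.13, 6 of them at an unadjusted p-value under 0.05 and none called after adjustment by limma, edgeR or DESeq2. These medians depended on single libraries. Without *Gfi1*+/+ replicate 1 the neuronal median was -0.62, over the genes still tested. Without *Gfi1*cre/+ replicate 1 the erythroid median was 0.46, over the genes still tested. The granulocyte median lay between 1.30 and 2.75 with 1 library left out. The part of these other cells in the levels of the bone genes was not tested. Fewer or more cells of a type and less or more RNA per cell cannot be told apart in these libraries.

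The genotype comparison asks whether bone genes differ between *Gfi1*cre/+ and *Gfi1*+/+ cochleae. All 10 genes had a higher mean log2 level in *Gfi1*cre/+, as did 49.9% of all genes tested, and the genotypes did not overlap in 2 of the 10, where 7.52% of all genes had no overlap. This contrast was known when the genes were chosen, so nothing is read from these counts. On the log2(normalized reads + 1) scale, which slightly understates the change of genes with few reads, the log2 fold change was 0.46 for *Ibsp* (standard error 0.396), 0.40 for *Dmp1* (0.268), 0.30 for *Alpl* (0.169), 0.24 for *Sp7* (0.194), 0.22 for *Phex* (0.0926) and 0.14 for *Spp1* (0.0576). Their median was 0.27. It was 0.89 for *Mmp13* (0.209), 0.55 for *Acp5* (0.315), 0.52 for *Mmp9* (0.328) and 0.25 for *Ctsk* (0.166), with a median of 0.53. The median over all genes tested was -0.00012. By the ratio of means, *Mmp13* was 1.86 times, *Acp5* 1.34 times and *Spp1* 1.10 times its level in *Gfi1*+/+.

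Several of these differences depended on single *Gfi1*+/+ mice, and leaving out the same mouse could move the medians of the 2 groups of genes in opposite directions. Without *Gfi1*+/+ replicate 2 the log2 fold change of *Ibsp* was -0.05 and that of *Sp7* 0.05, while that of *Acp5* was 0.99 and that of *Mmp9* 0.94. Without *Gfi1*+/+ replicate 3 it was 0.96 for *Ibsp*, 0.78 for *Dmp1* and 0.52 for *Sp7*, while *Acp5* and *Mmp9* were at 0.33 and 0.42. Without *Gfi1*+/+ replicate 1 the medians were 0.19 for the osteoblast and 0.27 for the resorption genes. Over the 6 libraries left out in turn, *Spp1* stayed within 0.11 to 0.17, *Phex* within 0.15 to 0.31 and *Mmp13* within 0.76 to 1.06.

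**Figure D5:**
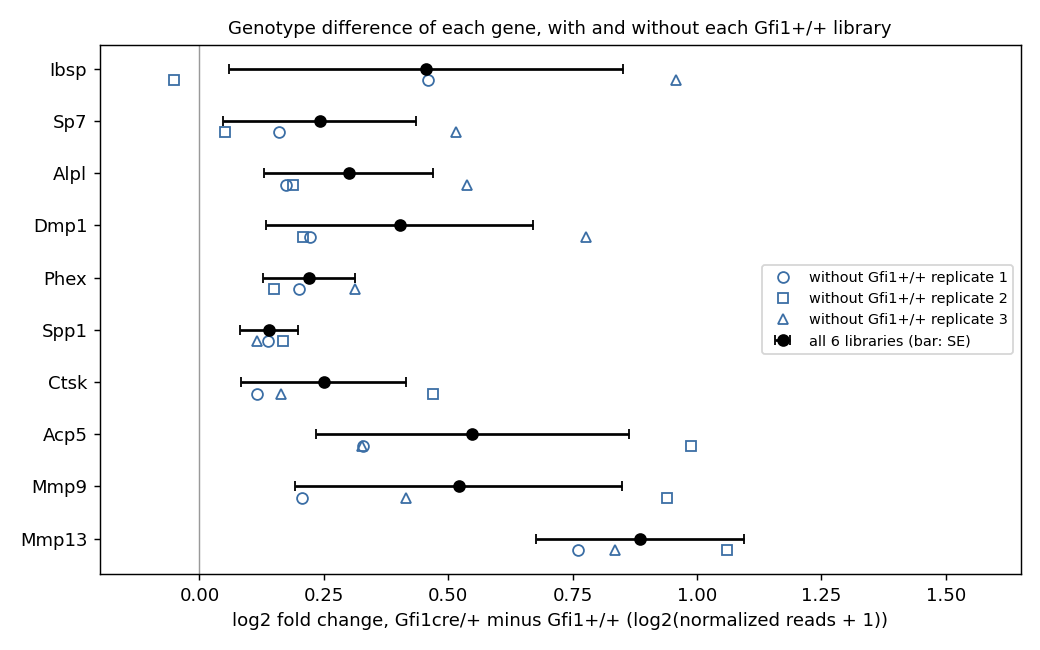
Log2 fold change of each gene, *Gfi1*cre/+ minus *Gfi1*+/+, from all 6 libraries (black, bar is the standard error) and without each *Gfi1*+/+ library (open symbols). Leaving out replicate 2 moves *Ibsp* to -0.05 and *Acp5* to 0.99, and leaving out replicate 3 moves *Ibsp* to 0.96.

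Of the 29 other osteoblast and bone matrix genes, 24 had a higher and 5 a lower mean in *Gfi1*cre/+, where 49.9% of all genes tested were higher. Their median log2 fold change was 0.11. None passed an adjusted p-value of 0.05 in limma's test, in edgeR or in DESeq2. By limma 1 gene, *Mepe*, had an unadjusted p-value under 0.05, where 3.04% of all genes tested did. *Mepe*, a matrix protein of osteocytes that lies between *Ibsp* and *Spp1*, had 259, 219 and 308 normalized reads in *Gfi1*+/+ and 279, 404 and 405 in *Gfi1*cre/+ (log2 fold change 0.46 ± 0.166 as standard error, limma adjusted p = 0.999), and its genotypes overlapped. Without *Gfi1*+/+ replicate 3 the count was 16, and 16.2% of all genes tested then had an unadjusted p-value under 0.05. *Sost*, the Wnt inhibitor secreted by osteocytes, had 88.9, 80.6 and 158 normalized reads in *Gfi1*+/+ and 101, 191 and 170 in *Gfi1*cre/+.

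Of the 20 other osteoclast and resorption genes, 15 had a higher and 5 a lower mean in *Gfi1*cre/+, where 49.9% of all genes tested were higher. Their median log2 fold change was 0.05. None passed an adjusted p-value of 0.05 in limma's test, in edgeR or in DESeq2. By limma 1 had an unadjusted p-value under 0.05, where 3.04% of all genes tested did. This was *Mitf*, a transcription factor of melanocytes and osteoclasts, which had 839, 862 and 796 normalized reads in *Gfi1*+/+ and 725, 739 and 787 in *Gfi1*cre/+ (log2 fold change -0.15 ± 0.0616 as standard error, limma adjusted p = 0.999). *Atp6v0d2* had a log2 fold change of 0.90 with a standard error of 0.404, which was 1.44 without *Gfi1*+/+ replicate 2.

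Genes of cartilage, from which the capsule forms, were examined in the same way. Of 19 cartilage genes 16 were tested, with a median log2 fold change of 0.06, 14 higher and 2 lower in *Gfi1*cre/+, where 49.9% of all genes tested were higher. By limma none reached 0.05 before or after adjustment, and edgeR and DESeq2 called none after adjustment. *Col2a1*, the chain of the main cartilage collagen, had 327485.9 ± 50923.6 normalized reads (SD, n = 3) in *Gfi1*+/+ and 340384.9 ± 11368.4 in *Gfi1*cre/+. *Col10a1*, the marker of hypertrophic cartilage, was not among the listed genes.

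The genes nearest to each pattern were looked for among 12085 other genes averaging 100 or more normalized reads, by the root mean square difference of centred log2 values over the 6 libraries. For the mean of the 6 osteoblast genes, whose own root mean square was 0.293, the nearest were *Gm29294* (0.0392), *Fam131c* (0.0521) and *Panx3* (0.0621), a channel protein of osteoblasts and chondrocytes with 880, 762 and 1370.2 normalized reads in *Gfi1*+/+ and 1083.6, 1088.3 and 1161.5 in *Gfi1*cre/+. For the mean of the 4 resorption genes, whose own root mean square was 0.448, the nearest were *Cd109* (0.179), *Slc37a2* (0.179) and *Uhrf1* (0.239). *Slc37a2*, a sugar phosphate transporter found in macrophages and osteoclasts, had 196, 317 and 201 normalized reads in *Gfi1*+/+ and 236, 326 and 277 in *Gfi1*cre/+. With 6 libraries and this many genes, close patterns also arise without any shared origin.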

How the data were processed

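RNA of the cochlear duct was sequenced in 3 *Gfi1*+/+ and 3 *Gfi1*cre/+ libraries. Per the labels and the methods, TopHat alignments to mm10 were restricted by the authors to unique hits and counted per gene with HTSeq, and genes under 40 reads were dropped; versions, annotation and strand setting are not given in the sources used here. The deposited signal is named as quantile-normalized, but in each of the 6 columns 100% of values were whole multiples of 1 step (within 0.01), so each column is counts over 1 size factor. The column names give genotype and replicate, and were matched to the titles by these; no column of another sample was found. The values were used as deposited.

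Genes reaching 40 normalized reads in any library entered limma (version 3.58.1, R 4.3.3) on log2(value + 1) with a genotype term, eBayes with a trend, two-sided, and Benjamini-Hochberg adjustment over 14455 genes. edgeR (4.0.16) and DESeq2 (1.42.0) were run on the recovered reads. The steps were tested on simulated counts. The p-values, standard errors and SDs rest on the spread between these libraries. A floor of 3 reads, which covers counting error only, is between 2.61 and 3.70 normalized reads. Exon lengths and positions came from GENCODE (GRCm38), which matched 14791 of 14865 identifiers, and promoters from RefSeq. The members and lists were chosen with earlier results of these data known. Genes named are the members, up to 5 of each bone or cartilage list with an unadjusted p-value under 0.05 and the largest change, some of the most abundant of each list, the nearest patterns, and *Gfi1* with its chromosomal neighbours; *Ddx3y* and list genes outside this rule were chosen after their values were seen. 1 gene of the osteoblast list is counted with it but not reported here on its own. Alternatives were other pseudocounts, minima and scalings, no trend, the replicate number as a block, and each library left out.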

Additional observations from a re-analysis of the deposited data

How the results depend on the processing

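The number of genes with an adjusted p-value under 0.05, 4 with all libraries, was 10 in DESeq2 and 0 among genes averaging 200 or more normalized reads, and ran from 0 to 48 with 1 library left out. *Ddx3y*, which was called with all libraries, averaged 167.6 normalized reads and so fell below that minimum. The count of other osteoblast genes at an unadjusted p-value under 0.05 ran from 0 to 16, that of other osteoclast genes from 0 to 4 and that of cartilage genes from 0 to 6, with the highest of each without *Gfi1*+/+ replicate 3. Without that library, 16.2% of all genes tested had an unadjusted p-value under 0.05 by limma. The osteoclast count was 0 without a trend and in DESeq2, and 2 with cyclic loess. With the replicate number as a replicate block, the osteoblast count was 5 in place of 1 and the number of genes with an adjusted p-value under 0.05 was 4. Same-numbered libraries did not deviate together, with correlations of -0.0944, 0.107 and -0.0326, so the block was not taken as a pairing. The median log2 fold change was between 0.16 and 0.53 for the osteoblast and between 0.27 and 0.96 for the resorption genes with 1 library left out, and the osteoblast minus resorption difference between the genotypes ran from -0.75 to 0.10, its sign turning without *Gfi1*+/+ replicate 3. Among the members, a log2 fold change fell below 0 under an alternative only for *Ibsp* without *Gfi1*+/+ replicate 2 (-0.05). Several alternatives, such as no trend and the replicate block, leave the fold change of a member as it was. The contrast was also known when the genes were chosen, so nothing is read from these signs. *Mmp13* rests on few reads.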

Other observations

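The genes below were chosen after their values were seen. Among the 10 genes nearest to the resorption pattern were *Uhrf1*, *Top2a* and *Racgap1*, which dividing cells express. *Top2a* had 194, 291 and 175 normalized reads in *Gfi1*+/+ and 255, 249 and 264 in *Gfi1*cre/+, so that replicate 2 was the highest library in *Gfi1*+/+ and the lowest in *Gfi1*cre/+. *Tecta*, which encodes a protein of the tectorial membrane, had 5506.4, 9628.3 and 3299.5 normalized reads in *Gfi1*+/+ and 4656.3, 7596.8 and 5030.9 in *Gfi1*cre/+, so that replicate 2 was the highest library of each genotype, as for *Acp5* and *Mmp9*. Its log2 fold change between the genotypes was 0.01. *Col4a3*, a basement membrane collagen, was the fourth nearest gene to the osteoblast pattern, with 3977.0, 3305.4 and 6785.7 normalized reads in *Gfi1*+/+ and 4905.2, 5461.0 and 5472.4 in *Gfi1*cre/+.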
